A study of Mus musculus with 8 samples.

Results

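The endoplasmic reticulum (ER) folds secreted and membrane proteins with the help of chaperones that reside in its lumen. When unfolded proteins accumulate there, 3 sensors in the ER membrane, ATF6, IRE1 and PERK, start the unfolded protein response (UPR). ATF6 and the spliced form of XBP1, which IRE1 produces, switch on genes for chaperones and for the disposal of misfolded proteins, while PERK phosphorylates the translation factor eIF2alpha and so favours synthesis of the transcription factor ATF4. Other kinases that respond to lack of amino acids or haem, or to double-stranded RNA, also phosphorylate eIF2alpha, so ATF4 and its target genes can respond without an ER signal. The 10 genes described here, *Hspa5*, *Hsp90b1*, *Hyou1*, *Dnajb9*, *Sdf2l1*, *Calr*, *Pdia4*, *Creld2*, *Herpud1* and *Xbp1*, are ER chaperones, folding enzymes and regulators that are widely used as a readout of the ATF6 and XBP1 side. They were chosen by name from the 24385 features of the expression table, and all 10 were among the 10018 genes that passed the filter of a mean of at least 1 FPKM (fragments per kilobase of transcript, scaled by library size).

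RNA was sequenced from whole mouse embryonic hearts at embryonic day 8.5 (E8.5) and 9.5 (E9.5), with 2 libraries in each of 4 groups. In the knockout hearts (cKO), labelled Mesp1Cre/+; Dgcr8-/-, a Cre recombinase expressed from the *Mesp1* locus removed loxP-flanked *Dgcr8* in the progeny of early mesoderm cells; *Dgcr8* encodes a protein needed to cut primary microRNA transcripts. The controls, labelled wild type (WT), carried the same loxP-flanked *Dgcr8* alleles without Cre, so the cKO embryos differed from them by the Cre allele as well, and per the study's breeding scheme both groups carried the ROSA26 mTmG reporter. All embryos were on a C57BL/6 background. Cells in which *Mesp1* was never expressed keep *Dgcr8*. The labels do not say whether hearts were pooled or came from separate litters, so the p-values measure the spread between these libraries only.

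The targeted gene was examined first. *Dgcr8* was measured at 7.1 and 8.6 FPKM in WT at E8.5, 1.64 and 4.67 in cKO at E8.5, 3.49 and 3.23 in WT at E9.5, and 1.15 and 1.77 in cKO at E9.5. At either stage the higher cKO value was below the lower WT value. The log2 change at E9.5 was -0.84 (SE 0.36, limma adjusted p 0.317) and did not pass the test. Relative sequencing depth varied between 1 and 1.45, and the absolute depth was unknown. Loci under 300 bp took between 15.7% and 54.5% of the summed FPKM of a library, with 54.5% in E9.5 cKO replicate 1 and 18.3% in E9.5 cKO replicate 2. All 8 cardiomyocyte markers examined were above 0 in every library, with summed levels of 13812 to 37769 FPKM. The E8.5 libraries also held RNA for markers of the maternal decidua: *Prl8a2*, a decidual prolactin, was at 449 and 1141 FPKM in WT and 9.95 and 5104 in cKO at this stage, against at most 5.09 FPKM in any E9.5 library.

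Short stretches of promoter sequence are shown for the 5 genes whose window holds letters of an ER stress response element. RefSeq promoter windows (build GRCm38.p6, 250 bases before to 50 after the transcription start) were found for 9 of the 10 genes, with none for *Hyou1*. They were searched on both strands for the ER stress response element ERSE (CCAAT and CCACG, 9 bases apart), its variant ERSE-II (ATTGG and CCACG, 1 base apart) and the core of the XBP1 element UPRE (TGACGTGG). An exact ERSE was present in 4 of the 9 windows, against 39 of 32851 windows overall (0.119%), and an ERSE-II in 1 of 9 against 12 overall (0.0365%). In the sequences below, written 5′ to 3′ on the strand of the gene, the capitals mark the matched element. The ERSE of *Hspa5* began 65 bases before the start. *Hsp90b1* held an ERSE on each strand, and in *Calr*, *Creld2* and the site of *Hsp90b1* nearer the start it is read on the opposite strand and so appears as CGTGG through ATTGG.
*Hspa5*, chr2:34772005-34772063, plus strand: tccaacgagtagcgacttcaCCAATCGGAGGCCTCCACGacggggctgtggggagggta
*Hsp90b1*, chr10:86705618-86705676, minus strand: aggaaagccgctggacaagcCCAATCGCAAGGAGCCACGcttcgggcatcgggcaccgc
*Hsp90b1*, chr10:86705513-86705571, minus strand: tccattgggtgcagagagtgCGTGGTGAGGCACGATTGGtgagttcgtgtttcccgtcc
*Calr*, chr8:84847055-84847113, minus strand: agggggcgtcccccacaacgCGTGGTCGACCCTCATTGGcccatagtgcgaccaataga
*Creld2*, chr15:88819500-88819558, plus strand: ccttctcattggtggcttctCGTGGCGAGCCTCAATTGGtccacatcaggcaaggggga
*Herpud1*, chr8:94386357-94386407, plus strand: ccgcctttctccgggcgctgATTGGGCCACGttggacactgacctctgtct
The UPRE core was found in 0 of the 9 windows and in 0.676% of all windows. A match is a description of the letters only. The 10 genes were picked as known readouts of this response, so the contrast with all windows is no test.

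The main comparison asked whether the unfolded protein arm is raised in cKO hearts at E9.5. None of the 10 genes passed the limma test in either direction, and none had both cKO libraries above both WT libraries. *Hspa5* had the greatest fold difference of the 10 genes and was lower in cKO, 3.55-fold by the group means. Its cKO replicates differed 2.21-fold, and 1.84% of tested genes were at least as far apart; the log2 change was -1.34 without E9.5 cKO replicate 1 and -2.48 without E9.5 cKO replicate 2. Both cKO libraries lay below both WT libraries for 5 genes, *Hspa5*, *Sdf2l1*, *Pdia4*, *Creld2* and *Calr*, while the other 5 overlapped. By the rule for a call, 1.5-fold with an adjusted p below 0.05, 0.17% of the tested genes were called higher and 0.00998% lower. Groups did not overlap for 31.1% of tested genes in the lower direction and for 21% in the higher direction. Before adjustment, 3 of the 10 (*Hspa5*, *Pdia4* and *Creld2*) were lower by 1.5-fold with p below 0.05 and 0 were higher, against 9.99% and 5.08% of tested genes. The median log2 change of the 10 genes was -0.56, while that of all tested genes was -0.07, which places the list at -0.49 relative to the median gene. Of the 10 genes, 2 lay above the median gene (50% of all tested genes do so by definition). The cell type marker lists varied at E9.5, and a marker is counted as separated when the cKO libraries lie on one side of both WT libraries. The 6 primitive erythroid markers had a median log2 change of 0.90, with 3 of 6 separated higher and summed levels of 14429 and 29566 FPKM in the control and 39583 and 29101 in the cKO hearts. The 8 endothelial and endocardial markers had a median of 0.25, with 4 of 8 separated higher and 1 lower and summed levels of 105 and 100 FPKM in the control and 177 and 152 in the cKO hearts. The 8 cardiomyocyte markers had a median of 0.46, with 3 separated higher and 1 lower, and the 8 yolk sac endoderm markers one of 0.09, with 2 separated higher. The median of the 6 tested decidual markers was -0.41, with 1 separated lower, and that of the 5 tested myeloid and natural killer markers 0.07, with 1 separated higher. The decidual list holds *Cryab*, *Hand2* and *Bmp2*, which were present in every E9.5 library, so its median is not that of decidua alone. Every erythroid, endothelial, cardiomyocyte and yolk sac marker was above 0 in each E9.5 library, and no marker of the 6 lists passed the limma test (before adjustment, *Pecam1* and *Alas2* were higher by 1.5-fold with p below 0.05), and their part in the values of the 10 genes was not tested.

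**Figure D1:**
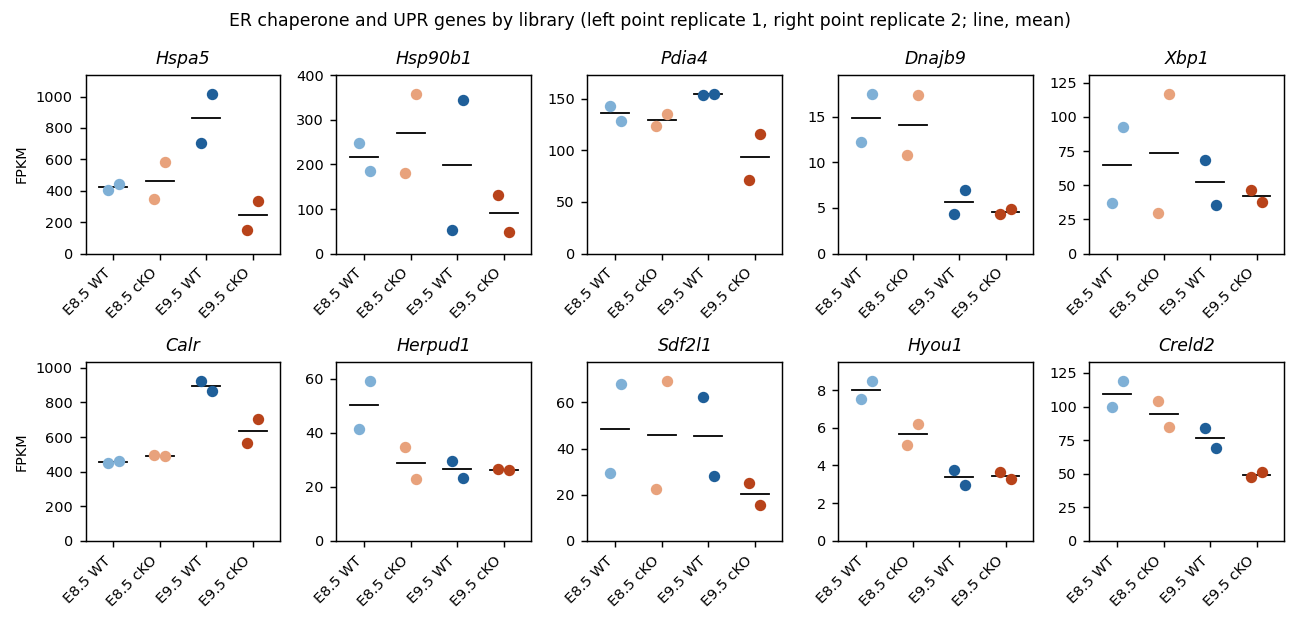
FPKM of the 10 genes in each of the 8 libraries, on linear axes that start at 0, with replicate 1 on the left, replicate 2 on the right and a line at the mean of 2. *Hspa5* separates E9.5 WT (704 and 1018 FPKM) from E9.5 cKO (151 and 334 FPKM), while *Hsp90b1*, *Xbp1* and *Sdf2l1* vary widely between replicates.

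The luminal chaperones are described first. *Hspa5* (chromosome 2, 34772090 to 34776529, GRCm38) encodes BiP, the abundant HSP70-type chaperone of the ER, which also keeps the UPR sensors inactive. Its level was 404 and 444 FPKM in WT at E8.5, 345 and 585 in cKO at E8.5, 704 and 1018 in WT at E9.5, and 151 and 334 in cKO at E9.5. The E9.5 WT libraries were the highest of all 8 and the E9.5 cKO libraries the lowest, with no overlap between them. Group means at E9.5 were 861 ± 222 FPKM in WT and 243 ± 129 FPKM in cKO (SD, n = 2), a log2 change of -1.91 (SE 0.43, 95% interval -2.90 to -0.91). The limma adjusted p was 0.118, between 0.0695 and 0.762 over the alternatives, so the difference did not pass the test. After correction for transcript GC content, with which the E9.5 genotype change had a Spearman rho of 0.405 across genes, the change of *Hspa5* was -1.70. Its locus overlaps the gene *Rabepk* in RefSeq, and the strand setting of the counting was not stated, so reads from the overlap cannot be told apart. In RNA from whole hearts, fewer cells of a type and less RNA per cell cannot be told apart either.

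*Hsp90b1* (chromosome 10, 86690841 to 86705444) encodes GRP94, the HSP90-type chaperone of the ER. Its level was 248 and 185 FPKM in WT at E8.5, 182 and 359 in cKO at E8.5, 53.1 and 345 in WT at E9.5, and 132 and 48.7 in cKO at E9.5. The E9.5 WT replicates lay 6.51-fold apart, the cKO replicates 2.71-fold, and the groups overlapped. On the log2 scale, differences of this size or more were seen for 0.399% of tested genes in the WT pair and for 0.569% in the cKO pair. The genotype change at E9.5 was -0.75 on the log2 scale (SE 0.84, 95% interval -2.69 to 1.18, limma adjusted p 0.739). It turned to 0.59 without E9.5 WT replicate 2 and was -2.09 without E9.5 WT replicate 1, so its direction rests on single libraries. Transcript GC content moved with the replicate difference, with a Spearman rho of -0.627 across genes between the E9.5 WT replicates, and *Hsp90b1* has 43.8% GC against a median of 50.7% for tested genes; the part of GC content in this spread was not tested.

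*Hyou1* (chromosome 9, 44379490 to 44392369) encodes GRP170, a large HSP70-related chaperone that also exchanges nucleotide on BiP. It was the least abundant of the 10 genes in each group, at 7.54 and 8.48 FPKM in WT at E8.5, 5.11 and 6.2 in cKO at E8.5, 3.78 and 2.98 in WT at E9.5, and 3.66 and 3.26 in cKO at E9.5. Both E9.5 cKO values fell inside the range of the E9.5 WT values. The log2 change at E9.5 was 0.03 (SE 0.23, 95% interval -0.51 to 0.57, limma adjusted p 0.982), and it was -0.13 after GC correction.

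*Dnajb9* (chromosome 12, 44205897 to 44210068) encodes ERdj4, a J-domain co-chaperone of BiP and a well-known XBP1 target. Its level was 12.2 and 17.5 FPKM in WT at E8.5, 10.8 and 17.4 in cKO at E8.5, 4.33 and 6.97 in WT at E9.5, and 4.3 and 4.9 in cKO at E9.5. The stages separated in both genotypes, with E9.5 the lower, as they did for 8026 of 10018 tested genes in WT and 6282 in cKO. WT and cKO overlapped at both stages. At E9.5 the log2 change with genotype was -0.22 (SE 0.33, 95% interval -0.99 to 0.54, limma adjusted p 0.823).

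*Sdf2l1* (chromosome 16, 17130138 to 17132383) encodes a luminal protein that works with J-domain co-chaperones of BiP. It was measured at 29.2 and 67.9 FPKM in WT at E8.5, 22.6 and 69.3 in cKO at E8.5, 62.3 and 28.2 in WT at E9.5, and 25.1 and 15.4 in cKO at E9.5. Both E9.5 cKO libraries lay below both WT libraries, but the lower WT library, at 28.2 FPKM, was close to the higher cKO library, at 25.1 FPKM. The log2 change was -1.06 (SE 0.64, 95% interval -2.52 to 0.41, limma adjusted p 0.476), and it was -0.50 without E9.5 WT replicate 1 and -1.62 without E9.5 WT replicate 2.

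Among the folding enzymes and lectins, *Calr* (chromosome 8, 84842088 to 84846931) encodes calreticulin, a calcium-binding chaperone of glycoproteins that is abundant in the embryonic heart. Its level was 450 and 462 FPKM in WT at E8.5, 494 and 490 in cKO at E8.5, 924 and 864 in WT at E9.5, and 567 and 704 in cKO at E9.5. The replicates of *Calr* were furthest apart in E9.5 cKO, at 1.24-fold, where 44.3% of tested genes were at least as far apart. The cKO libraries lay above WT at E8.5 and below WT at E9.5 without overlap. At E9.5 the means were 894 ± 42.2 FPKM in WT and 636 ± 96.8 FPKM in cKO (SD, n = 2), 1.41-fold lower in cKO. The log2 change was -0.50 (SE 0.23, 95% interval -1.04 to 0.04, limma adjusted p 0.354).

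*Pdia4* (chromosome 6, 47796141 to 47813512) encodes ERp72, a protein disulfide isomerase. It was at 143 and 129 FPKM in WT at E8.5, 124 and 135 in cKO at E8.5, 154 and 155 in WT at E9.5, and 71 and 116 in cKO at E9.5. Both E9.5 cKO libraries were below the other 6 libraries, and cKO replicate 1 was the lowest. The log2 change at E9.5 was -0.76 (SE 0.29, 95% interval -1.44 to -0.08, limma adjusted p 0.266), and it was -0.41 without E9.5 cKO replicate 1. The locus contains *Mir704*.

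*Creld2* (chromosome 15, 88819646 to 88826681) encodes a secreted and ER-resident protein that ER stress induces. The values were 99.7 and 119 FPKM in WT at E8.5, 104 and 84.7 in cKO at E8.5, 83.9 and 69.1 in WT at E9.5, and 47.4 and 51.2 in cKO at E9.5. The E9.5 cKO libraries were the lowest of the 8 and lay close together. Group means at E9.5 were 76.5 ± 10.5 FPKM in WT and 49.3 ± 2.7 FPKM in cKO (SD, n = 2), with a log2 change of -0.62 (SE 0.26, 95% interval -1.22 to -0.02, limma adjusted p 0.304).

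*Herpud1* (chromosome 8, 94386500 to 94395358) encodes a membrane protein of the ER degradation machinery and is a target of both ATF6 and ATF4. Its level was 41.4 and 59.1 FPKM in WT at E8.5, 34.8 and 22.9 in cKO at E8.5, 29.5 and 23.3 in WT at E9.5, and 26.4 and 26.1 in cKO at E9.5. At E9.5 the cKO values lay between the WT values. The log2 change there was 0.00 (SE 0.31, 95% interval -0.71 to 0.72, limma adjusted p 1).

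*Xbp1* (chromosome 11, 5520641 to 5525993) encodes the transcription factor whose mRNA IRE1 splices on ER stress; FPKM per gene does not separate the spliced from the unspliced form. It was measured at 36.7 and 92.6 FPKM in WT at E8.5, 29.5 and 117 in cKO at E8.5, 68.5 and 35.7 in WT at E9.5, and 46.6 and 37.8 in cKO at E9.5. WT and cKO overlapped at both stages. The log2 change at E9.5 was -0.23 (SE 0.68, 95% interval -1.80 to 1.34, limma adjusted p 0.926), and it was 0.23 without E9.5 WT replicate 1.

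**Figure D2:**
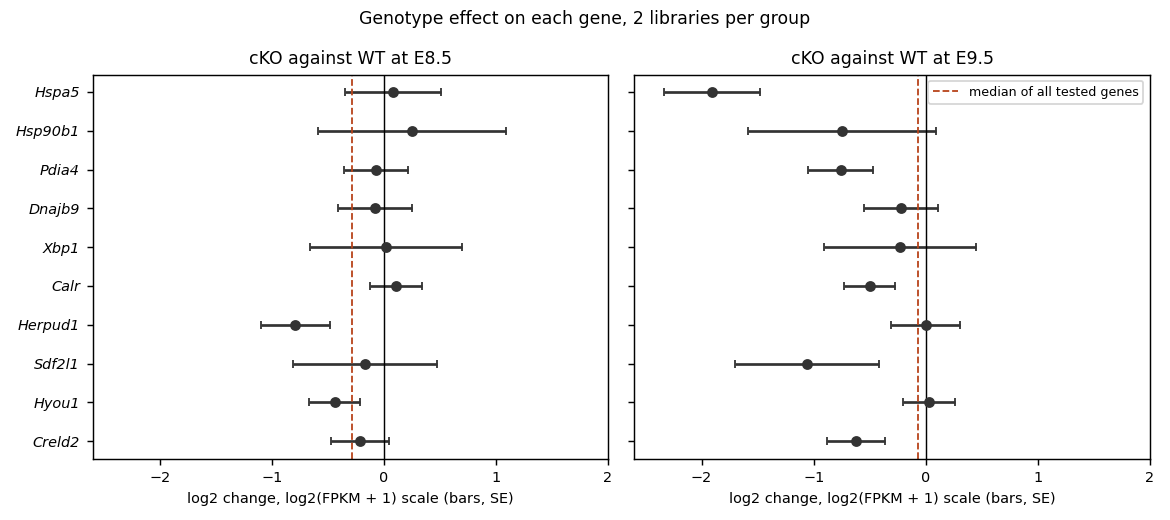
Change between cKO and WT on the log2(FPKM + 1) scale for each gene, at E8.5 on the left and E9.5 on the right, with bars for the SE and a dashed line at the median of all tested genes. At E9.5 *Hspa5* stands at -1.91 and 2 of the 10 genes lie to the right of the median gene, against 8 of 10 at E8.5.

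*Xbp1* and *Sdf2l1* differed between replicates in the same direction in all 4 groups. In E8.5 WT they were 2.52-fold and 2.32-fold higher in replicate 2, and in E8.5 cKO 3.98-fold and 3.07-fold higher in replicate 2. At most 4.59% of tested genes differed as much between the replicates of either E8.5 group. In E9.5 WT, replicate 1 was the higher, by 1.92-fold for *Xbp1* and 2.21-fold for *Sdf2l1*. The summed level of the decidual markers was also higher in replicate 2 of both E8.5 groups. For replicates 1 and 2 at E8.5, the 8 decidual markers together reached 1127 and 2149 FPKM with the WT genotype and 768 and 6632 with the cKO genotype. *Prl8a2* and *Cryab* made up most of these sums, and of the 8 markers 4 were higher and 4 (*Dcn*, *Pgr*, *Hand2* and *Wnt4*) lower in replicate 2 of E8.5 WT, while all 8 were higher in replicate 2 of E8.5 cKO. Of the 8 cardiomyocyte markers, 8 were higher in replicate 2 of E8.5 WT, but in replicate 2 of E8.5 cKO 4 were higher and 4 (*Myh6*, *Myh7*, *Actn2* and *Myl7*) lower. In replicate 2 of E8.5 WT, 6 of 6 erythroid, 7 of 8 yolk sac, 7 of 8 endothelial and 1 of 8 myeloid and natural killer markers were higher. In replicate 2 of E8.5 cKO these counts were 0 of 6, 0 of 8, 1 of 8 and 8 of 8. The part of any of these cell types in the *Xbp1* and *Sdf2l1* levels was not tested. At E9.5 the decidual sum was 525 to 718 FPKM, nearly all of it from *Cryab*, which the heart also expresses, and *Prl3c1* was listed at 0 in all 4 libraries. *Hand2* (3.6 to 5.84 FPKM) and *Bmp2* (2.99 to 10.8 FPKM) were also measured in these libraries, so this list does not mark decidua alone.

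The comparison at E8.5 asked whether a difference was already present a day earlier. No gene of the 10 passed the test, against 0.00998% of tested genes called higher and 0% called lower. Both cKO libraries were above both WT libraries for *Calr* only (2.54% of tested genes) and below them for *Herpud1* and *Hyou1* (40.1% of tested genes). *Herpud1* had means of 50.2 ± 12.6 FPKM in WT and 28.9 ± 8.45 FPKM in cKO (SD, n = 2) and a log2 change of -0.79 (SE 0.31, 95% interval -1.5 to -0.07, limma adjusted p 0.59), which was -0.49 without E8.5 cKO replicate 2 and -0.53 without E8.5 WT replicate 2. It was the single gene of the 10 with a 1.5-fold difference and p below 0.05 before adjustment, where 6.9% of tested genes were lower and 0.24% higher. For *Hspa5* the log2 change was 0.08 (SE 0.43, 95% interval -0.91 to 1.08, limma adjusted p 0.945). The median of the 10 genes was -0.08 and that of all tested genes -0.28, so 8 of the 10 lay above the median gene. The median relative to that gene, 0.21, turned to -0.07 without E8.5 WT replicate 1 and to -0.11 without E8.5 cKO replicate 2, and the changes of *Hspa5* (-0.29 to 0.46) and *Xbp1* (-0.96 to 1.0) also turned when a library was left out. Among the markers, all 8 of yolk sac endoderm were at least 1.5-fold higher by their log2 change (median 1.18) and all 5 tested myeloid and natural killer markers at least 1.5-fold lower (median -2.21), though all 8 of the former and 4 of the latter overlapped between the genotypes. The medians were 0.09 for cardiomyocyte, -0.16 for endothelial, -0.31 for erythroid and -0.53 for decidual markers. No marker passed the limma test at this stage (0 also had p below 0.05 before adjustment), and their part in the values of the 10 genes was not tested.

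The difference between the genotype effects at E9.5 and E8.5 was tested as an interaction. None of the 10 passed this test, while 0.0299% of tested genes were called higher and 0.00998% lower. *Hspa5* had the largest estimate of the 10, -1.99 (SE 0.61, 95% interval -3.40 to -0.58, limma adjusted p 0.572). *Herpud1*, at 0.79, and *Hyou1*, at 0.47, had the estimates above 0; that of *Herpud1* was 0.49 without E8.5 cKO replicate 2 and 0.53 without E8.5 WT replicate 2. The median of the 10 was -0.51, and -0.69 relative to the median gene (-0.90 to -0.45 when a library was left out).

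Between E8.5 and E9.5 in WT hearts, most genes of the table had lower FPKM at the later stage, with a median log2 change of -0.84 and 46.7% of tested genes called lower against 1.4% called higher. Of the 10 genes, *Calr* rose, by 1.96-fold (log2 change 0.97, SE 0.23, limma adjusted p 0.0178). *Dnajb9* fell by 1.26, *Hyou1* by 1.04 and *Herpud1* by 0.89 on the log2 scale (limma adjusted p 0.0216, 0.0155 and 0.0457). Relative to the median gene these 3 stood at -0.43, -0.21 and -0.05. Cell type markers moved with stage as well. In WT, 3 of 8 cardiomyocyte markers (*Actn2*, *Myh6* and *Myh7*), *Afp* of the 8 yolk sac markers (log2 change 4.45) and *Hbb-y* of the 6 erythroid markers (3.42) were called higher. Those called lower included the erythroid genes *Alas2* and *Klf1*, the decidual *Prl8a2* (-7.60) and *Prl3c1* and the myeloid *S100a8* (-6.75). The summed yolk sac level was 771 and 2658 FPKM at E8.5 and 6585 and 4987 at E9.5, and the cardiomyocyte sum was 13812 and 24758 at the earlier stage and 29009 and 27430 at the later. Their part in the stage values of the 10 genes was not tested. When the libraries were rescaled by the median-ratio method, the split of all calls turned from 140 higher and 4683 lower to 321 higher and 69 lower. *Calr* was then the only one of the 10 still called. After quantile normalization none of the 10 was called, with 88 higher and 27 lower over all tested genes. When a library was left out, the change ranged from 0.92 to 1.02 for *Calr* and -1.55 to -0.97 for *Dnajb9*. The ranges were -1.18 to -0.91 for *Hyou1* and -1.14 to -0.64 for *Herpud1*. Leaving out any WT library ended most or all of these calls, and fewer of all tested genes were called then as well. *Hspa5* had means of 424 ± 28.5 FPKM at E8.5 and 861 ± 222 FPKM at E9.5 (SD, n = 2), with a difference of 1.0 on the log2 scale (SE 0.43, limma adjusted p 0.0831). Under GC correction the change of *Dnajb9* was -0.76 (adjusted p 0.0916) and no longer called. That of *Hspa5* did not pass the test as deposited, but passed after GC correction (adjusted p 0.0424) and when only the 4 WT libraries were fitted (adjusted p 0.025).

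In cKO hearts over the same day, *Creld2* fell by 0.92 (SE 0.26) and *Dnajb9* by 1.4 (SE 0.33) on the log2 scale, with limma adjusted p of 0.0358 and 0.0233, where 28.5% of tested genes were called lower and 2.05% higher and the median gene changed by -0.64. Among the markers, *Actn2*, *Myh7* and *Hbb-y* were called higher and *Tek* and *S100a8* lower, and their part was likewise not tested. Neither *Creld2* nor *Dnajb9* was called after median-ratio rescaling (400 tested genes higher and 77 lower) or quantile normalization (258 and 49). The same held without the filter on low values (90 genes higher and 1098 lower). When a library was left out, the change ranged from -1.06 to -0.77 for *Creld2* and -1.72 to -1.08 for *Dnajb9*. Leaving out either E9.5 cKO library ended both calls, along with nearly all those of other genes. After GC correction *Dnajb9*, which has the lowest transcript GC content of the 10 (38.3%), changed by -0.63 (adjusted p 0.182) and was not called, while *Hyou1* was, at -0.76 (adjusted p 0.0368). *Hspa5* changed by -1.0 (SE 0.43, limma adjusted p 0.107), with both E9.5 libraries below both E8.5 libraries (6282 of 10018 tested genes). Its change was -0.62 without E8.5 cKO replicate 2, -0.43 without E9.5 cKO replicate 1 and -1.56 without E9.5 cKO replicate 2. *Calr* changed by 0.36 (SE 0.23, limma adjusted p 0.248), with the E9.5 libraries above (706 of 10018 tested genes), and by 0.21 without E9.5 cKO replicate 2. These stage comparisons and the genotype comparisons share libraries, so their values are not independent.

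**Figure D3:**
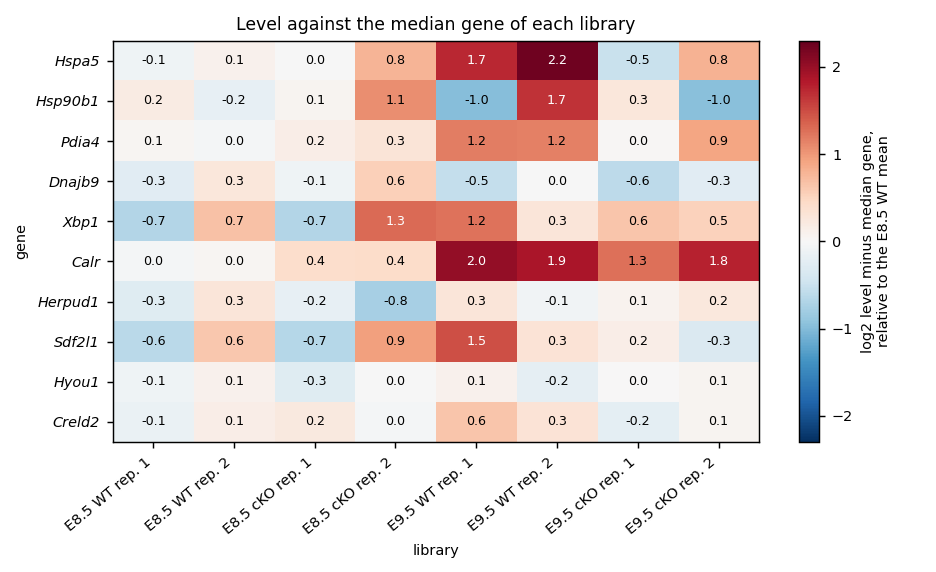
Level of each of the 10 genes against the median gene of its library, in log2 units relative to the mean of the E8.5 WT libraries (colour and number), with libraries in columns. In E9.5 WT *Hspa5* stood at 1.74 and 2.23 and *Calr* at 2.03 and 1.88, and in E9.5 cKO *Hspa5* stood at -0.52 and 0.80.

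Set against each other by FPKM, which is a level per transcript length, *Calr* and *Hspa5* were the 2 most abundant of the 10 genes in every group and *Dnajb9* and *Hyou1* the 2 least abundant. In E9.5 WT, *Calr* (894 FPKM) and *Hspa5* (861 FPKM) overlapped, and both exceeded 97.9% of tested genes. In E9.5 cKO they separated, at 636 and 243 FPKM. *Xbp1* and *Sdf2l1* overlapped as neighbours in E8.5 cKO and E9.5 WT, and *Hsp90b1* and *Pdia4* in both E9.5 groups.

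The genes whose pattern over the 8 libraries was most like that of *Hspa5*, by the root mean square difference in centred log2(FPKM + 1), were *Atp5f1* (0.16), *Pdia3* (0.17), *Hmgb2* (0.19), *Cnbp* (0.23) and *Cox7b* (0.23). *Pdia3*, a glycoprotein-specific disulfide isomerase of the ER, is the only ER folding gene among these 5; the others encode a subunit of ATP synthase, a chromatin protein, a nucleic acid-binding protein and a subunit of cytochrome c oxidase. Of the other 9 ER chaperone and UPR genes, *Pdia4* ranked 87 of 10017 genes, *Calr* 647 and *Creld2* 983, and *Hsp90b1* ranked 8211. With the values centred within each stage instead, the nearest genes were *Pdia3* (0.10), *Atp5f1* (0.11), *Srsf3* (0.13), *Serp1* (0.14), which encodes a membrane protein of the ER, and *Cnbp* (0.15), and *Pdia4* ranked 366, *Calr* 1009, *Creld2* 1362 and *Hsp90b1* 7525. The libraries share their depth and GC composition across genes, so this likeness is a description.

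The wider UPR machinery was examined at E9.5 with lists of known components. Of the 5 genes for sensors and their proteases, *Ern1* (IRE1) at 0.109 to 0.631 FPKM and *Eif2ak3* (PERK) at 0.165 to 0.74 FPKM were under the filter and not tested. At E9.5 *Eif2ak3* had 0.165 and 0.254 FPKM with the WT genotype and 0.354 and 0.302 with the cKO genotype. *Atf6* changed by 0.26 (SE 0.24), *Mbtps1* by -0.23 (SE 0.32) and *Mbtps2* by -0.02 (SE 0.33) on the log2 scale, the last 2 encoding the proteases that release ATF6; none passed the test.

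Of 16 further ER folding genes, 15 were tested and 0 were called in either direction by limma; before adjustment, 5 were lower and 2 higher by 1.5-fold with p below 0.05 (9.99% and 5.08% of tested genes). Their median log2 change was -0.56, equal to that of the 10 genes. *Pdia3* was at 525 and 862 FPKM with the WT genotype and at 135 and 249 with the cKO genotype (log2 change -1.87, SE 0.41, limma adjusted p 0.113). The lectin chaperone calnexin (*Canx*) changed by -1.27 (SE 0.47) and the disulfide reductase *Dnajc10* by -1.22 (SE 0.42), with limma adjusted p of 0.251 and 0.227. *Ero1l*, the oxidase that recharges disulfide isomerases, went the other way, with 2.72 and 4.22 FPKM in the control and 16 and 7.69 in the cKO hearts (log2 change 1.47, SE 0.49, limma adjusted p 0.216). In the ER degradation and translocation list, 15 of 16 genes were tested, 0 were called (1 was lower by 1.5-fold with p below 0.05 before adjustment, near the 9.99% of all tested genes), and the median was -0.05. The translocon-associated *Ssr1* had the largest change there, -1.13 (SE 0.32, limma adjusted p 0.158), followed by *Edem2* at 0.50, *Vimp* at -0.48 and *Sec61b* at -0.45.

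The ATF4 effectors, which stand on the eIF2alpha side, differed from the 10 genes in their values. Of 16 listed, 13 were tested, 2 were called higher (0.17% of tested genes) and 0 lower, and 12 of 13 had both cKO libraries above both WT libraries (21% of tested genes). Their median log2 change was 1.37, against -0.56 for the 10 chaperone and UPR genes. *Chac1*, which degrades glutathione, was at 0.236 and 0.291 FPKM in the control and 15.3 and 7.23 in the cKO hearts, and rose by 3.20 on the log2 scale (SE 0.33, limma adjusted p 0.0136). The pseudokinase gene *Trib3* was at 2.02 and 1.53 FPKM in the control and 27.3 and 14.6 in the cKO hearts, and rose by 2.92 (SE 0.35, limma adjusted p 0.0233). *Ddit3*, which encodes CHOP, changed by 1.78 on the log2 scale (SE 0.27, limma adjusted p 0.0648), *Vldlr* by 1.48 (SE 0.27, adjusted p 0.0912) and *Atf4* itself by 1.01 (SE 0.26, adjusted p 0.142). Fewer of the 13 were called when an E9.5 or E8.5 WT library or an E9.5 cKO library was left out. More were called when an E8.5 cKO library was left out. The number of all tested genes called higher moved the same way. Median-ratio rescaling gave 7 calls and quantile normalization 4, all higher, against 54 and 29 of all tested genes called higher. With only the 4 E9.5 libraries 0 were called. Without the filter 0 were called as well, against 4 genes called higher in all. Of the eIF2alpha kinases other than PERK, *Eif2ak1* changed by -0.31 (SE 0.28) and *Eif2ak4* by -0.47 (SE 0.22), and *Eif2ak2* was under the filter. No test of the difference between the lists was made.

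**Figure D4:**
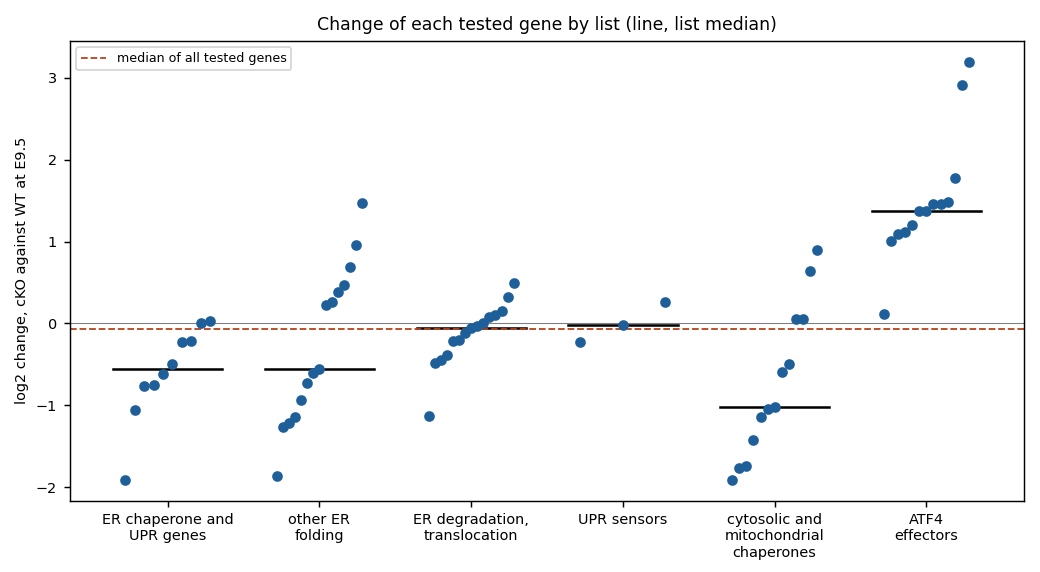
Log2 change between cKO and WT at E9.5 for each tested gene of 6 lists, with a solid line at the median of the list and a dashed line at the median of all tested genes. The ATF4 effectors have a median of 1.37 and the 10 ER chaperone and UPR genes one of -0.56.

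The core of the element bound by ATF4 with C/EBP partners, TGATGNAA on either strand, was present in 7 of 16 ATF4 effectors and in 1 of the 9 chaperone and UPR genes with a window, *Herpud1*, against 3.97% of all windows. It is shown here, read on the opposite strand, because *Herpud1* holds it, from 112 bases before the start, upstream of its ERSE-II, which begins 52 bases before the start.
*Herpud1*, chr8:94386297-94386344, plus strand: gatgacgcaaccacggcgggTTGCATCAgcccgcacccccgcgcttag
An exact ERSE was found in 0 of 16 ATF4 effectors and in 4 of 14 further ER folding genes with a window. *Herpud1*, with both elements, had a log2 change of 0.00 at E9.5.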

How the data were processed

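The 10 genes and all gene lists were chosen with earlier results of these data known. Total RNA was extracted with Trizol, amplified (by the Smart-seq2 protocol per the study's methods, with a SMARTer Ultra Low kit per the labels) and sequenced; the submitters' processing notes name BWA and mm9. The FPKM values were calculated and deposited by the authors, 1 column per library and 8 in all (0 columns were left out). The program that made them and the strand setting are not given in the sources used here. Gene positions in the table fit GRCm38 rather than mm9: of 9515 tested genes found in RefSeq, 91.7% started within 1000 bp of the GRCm38 start. Coordinates are given on GRCm38, counted from 1. Replicates and groups came from the labels.

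Of the 24930 entries, 285 symbols occurred repeatedly, of which the most abundant entry was used; 24385 features remained. The 10018 genes averaging 1 FPKM or more were tested as log2(FPKM + 1) in limma (version 3.58.1, R version 4.3.3). All 4 groups entered 1 model with a mean-variance trend, two-sided, with Benjamini-Hochberg adjustment over all tested genes. Calls required a 1.5-fold change and an adjusted p below 0.05. The pseudocount of 1 understates changes of low genes, and fold changes in FPKM are ratios of group means. FPKM is relative to the library total, so the median gene is given beside each comparison. Count tests do not apply to FPKM, depth was read only in relative terms from genes under 0.3 FPKM, and with 2 libraries against 2 the smallest p of an exact permutation test is 0.333. On simulated data, 68.5% of 200 genes changed 4-fold were called among 10018, with 7.05 false calls on average over 20 simulations. The simulation drew independent noise for each gene around 1 mean shared by the 4 groups. The GC-linked differences between real replicates were not simulated, so these figures need not hold for the real libraries. Named genes were the 10, *Dgcr8*, all sensors and kinases, the 4 tested genes with the largest change at E9.5 in each other list, and the 5 genes most like *Hspa5* under each centring. Also named were *Atf4*, *Hspa1a*, *Hspb1* and marker genes where a result turned on them, which were chosen after their values were seen. Promoters were taken from RefSeq (GRCm38.p6). Alternatives were another pseudocount, no filter, median-ratio and quantile scaling, rescaling to loci of at least 300 bp, no variance trend, only the 4 libraries compared, a replicate block, GC correction (lowess, span 0.3) with and without the block, and leaving out each library.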

Additional observations from a re-analysis of the deposited data

Results flagged for a closer look

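For 3 of the 10 genes the libraries moved one way under a contrast in 1 group and the opposite way in another, without overlap in either. *Calr* was higher in both cKO libraries than in both WT libraries at E8.5 and lower at E9.5; the difference of the genotype effect was -0.61 on the log2 scale (limma adjusted p 0.746). This pattern was seen in 5.64% of tested genes. *Hspa5* was higher at E9.5 than at E8.5 in both WT libraries and lower in both cKO libraries, with a difference of -1.99 (limma adjusted p 0.572), and *Pdia4* had the same pattern with a difference of -0.69 (limma adjusted p 0.766), which was -0.34 without E9.5 cKO replicate 1 and -1.04 without E9.5 cKO replicate 2. The stage pattern was seen in 2.49% of tested genes. None of the 3 differences passed the test.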

How the results depend on the processing

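With 2 libraries a group and unknown absolute depth, an interval of about 1 log2 unit or more surrounds most changes of the 10 genes, and a p that misses the threshold does not show equal levels. Of 900 values of single genes under alternatives, 789 were counted as keeping direction and side of the threshold, 47 as losing a call, 6 as gaining a call and 58 as turning direction. A change of 0.00 as deposited, that of *Herpud1* at E9.5, could not be counted as turning. At E9.5, at E8.5 and for the interaction, 0 of the 10 were called under each alternative run, and the relative median kept its sign at E9.5 (-0.55 to -0.25 when a library was left out; at E8.5 -0.11 to 0.52). Calls between stages varied. In WT they were 4 as deposited, 1 after median-ratio scaling, 0 after quantile normalization, and 0 to 4 when a library was left out. In cKO they were 2 as deposited, 0 with no filter, median-ratio or quantile scaling, 1 with only the 4 libraries compared, 1 with GC correction and replicate block, and 0 to 1 when a library was left out; the relative median there was -0.51 to 0.22, with -0.51 without E8.5 cKO replicate 1. The cause of these changes was not tested.

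Equally numbered replicates did not deviate together across genes (correlations 0.0168, -0.00358, -0.116 and -0.0465). The labels do not say whether they share a litter, so a pairing by number is unknown, and the main model used none. With the replicate block, 4 of the 10 were called between stages in WT, where 145 tested genes were called higher and 4523 lower. *Hspa5* came in (limma adjusted p 0.0366) and *Herpud1* went out (limma adjusted p 0.054). In cKO 2 were called, with 178 tested genes higher and 2441 lower, and 0 in the other comparisons. With the crossed block, chosen after seeing the data, 3 were called in WT, with 125 tested genes higher and 4268 lower.

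Directions that turned, none of them with a call in the turned direction, were as follows on the log2 scale. After median-ratio and quantile scaling the E8.5 genotype change became 0.29 and 0.21 for *Pdia4*, 0.25 and 0.31 for *Dnajb9*, 0.19 and 0.17 for *Sdf2l1*, and 0.15 and 0.05 for *Creld2*. The stage change in WT became 0.74 and 0.49 for *Xbp1*, 0.89 and 0.68 for *Sdf2l1*, 0.48 and 0.03 for *Creld2*, and, after median-ratio scaling alone, 0.34 for *Hsp90b1* and 0.08 for *Herpud1*. The stage change in cKO became 0.26 and 0.13 for *Xbp1*, 0.63 and 0.60 for *Herpud1*, 0.04 and 0.15 for *Hyou1*, and 0.24 after median-ratio scaling for *Pdia4*. *Xbp1* at E9.5 became 0.03 after quantile scaling. Rescaling to longer loci gave -0.01 for *Hspa5* and -0.08 for *Xbp1* at E8.5 and -0.03 for *Pdia4* between stages in WT. GC correction, with and without the replicate block, gave -0.13 for *Hyou1* at E9.5 and 0.12 for the *Dnajb9* interaction.

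When a library was left out, the E9.5 change ranged from -2.09 to 0.59 for *Hsp90b1*, -0.51 to 0.07 for *Dnajb9*, -0.69 to 0.23 for *Xbp1* and -0.10 to 0.16 for *Hyou1*. That of *Herpud1*, 0.00 as deposited, ranged from -0.16 to 0.16. The E8.5 change ranged from -0.29 to 0.46 for *Hspa5*, -0.23 to 0.74 for *Hsp90b1*, -0.40 to 0.24 for *Dnajb9*, -0.96 to 1.0 for *Xbp1* and -0.95 to 0.62 for *Sdf2l1*. Between stages in WT the ranges were -1.99 to 0.69 for *Hsp90b1*, -0.89 to 0.42 for *Xbp1* and -0.68 to 0.51 for *Sdf2l1*, and in cKO -1.46 to 0.50 for *Xbp1* and -0.40 to 0.19 for *Herpud1*. The interaction ranged from -2.35 to 0.33 for *Hsp90b1*, -0.46 to 0.18 for *Dnajb9* and -1.23 to 0.73 for *Xbp1*.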

Other observations

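Chaperones outside the ER were measured in the same hearts. Of 14 cytosolic and mitochondrial chaperone and heat shock genes, 13 were tested at E9.5 and 0 were called by limma, with 6 lower and 1 higher by 1.5-fold with p below 0.05 before adjustment (9.99% and 5.08% of tested genes). Their median log2 change was -1.02, against -0.56 for the 10 ER chaperone and UPR genes. Of the 13, 8 had both cKO libraries below both WT libraries (31.1% of tested genes). For 2, *Hspa1a* and *Hspb1*, both cKO libraries lay above (21% of tested genes). *Hspb1* was at 2202 and 2066 FPKM in the control and 4142 and 3826 in the cKO hearts (log2 change 0.90, SE 0.27, limma adjusted p 0.178). *Hspd1*, the mitochondrial HSP60, was at 387 and 824 FPKM in the control and 121 and 187 in the cKO hearts (log2 change -1.91, SE 0.44, limma adjusted p 0.12). *Hsph1*, a nucleotide exchange factor of HSP70, had a log2 change of -1.77 (limma adjusted p 0.109), the co-chaperone gene *Dnaja1* one of -1.74 (limma adjusted p 0.205) and the mitochondrial HSP70 gene *Hspa9* one of -1.42 (limma adjusted p 0.158).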
